A study of Mus musculus with 8 samples.

Results

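Carboxypeptidase E (Cpe) and 7 related enzymes of prohormone and proprotein processing (Cpd, Cpm, Cpq, Furin, Pcsk5, Pcsk6 and Pcsk7) were followed in RNA-seq libraries of mouse bone marrow-derived mast cells (BMMCs). The 8 genes were picked by symbol from 56748 Ensembl gene IDs, of which 56017 (98.7%) had a name in the mouse annotation. All 8 were present in the count tables, and 5 of them (Cpe, Cpd, Furin, Pcsk5 and Pcsk7) were among the 14942 genes with enough counts to be tested. Cpe heads the group because its level differed between the conditions in these same libraries, so its difference is described here with no test and is not counted among the calls.

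BMMCs were grown from bone marrow of C57BL/6 mice of 6 to 8 weeks in medium with IL-3 for at least 4 weeks, and RNA was taken from resting cells. In the 4 Mettl3-RNP samples the cells had received Cas9 ribonucleoproteins with guide RNAs against Mettl3, the catalytic subunit of the m6A RNA methyltransferase (genotype label Mettl3 KO). The 4 Pulsed samples were mock transfected, carried no ribonucleoprotein and are labelled Mettl3 WT. The Mettl3-RNP populations were edited in bulk and not cloned, so cells that kept Mettl3 remained in them, and because the control held no Cas9, effects of Cas9 and of Mettl3 editing cannot be told apart. The groups share replicate numbers 1 to 4, which pair each Mettl3-RNP library with a Pulsed library.

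Peptide hormones and many secreted or membrane proteins are made as longer precursors. Proprotein convertases such as furin cut the precursor after basic residues, and a carboxypeptidase then trims the exposed basic residues from the new C-terminus: carboxypeptidase E does so in dense-core secretory granules, carboxypeptidase D mainly in the trans-Golgi network. Mast cells are granule-rich secretory cells best known for another carboxypeptidase, Cpa3, which is stored in their granules as a mature protease.

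Total gene counts ran from 32643260 (Mettl3-RNP replicate 3) to 45324826 (Pulsed replicate 3). Mettl3, the targeted gene, stood at 12.3, 9.18, 4.88 and 9.21 counts per 1000000 counts (CPM, on TMM-scaled library sizes) in Mettl3-RNP replicates 1 to 4 and at 25.9, 24.5, 11.2 and 26.5 CPM in the Pulsed libraries. All 4 pairs thus had less Mettl3 in the edited cells (log2 fold change -1.30, SE 0.109, edgeR adjusted p 0.00543). The groups overlapped, since Mettl3-RNP replicate 1 was above Pulsed replicate 3. Of the 6765 exon bases of Mettl3, 2308 overlap Tox4 on the opposite strand, and no source used here states strand-specific counting. The mast cell identity of the cultures was plain in both groups, with mean levels in Pulsed libraries of 4055 CPM for Kit, 2602 CPM for Fcer1a and 1608 CPM for Ms4a2. Some libraries stood apart irrespective of group: the median level of 15 immediate early genes (Fos, Egr1, Nr4a1 and others) was 775 and 513 CPM in the replicate 3 libraries and 3.96 and 2.55 CPM in the replicate 4 libraries, against 31.3 to 238 CPM in the others. Mettl3-RNP replicate 2 had the most counts on 1547 olfactory and vomeronasal receptor genes, which mast cells are not known to use, with 277 CPM in sum against 46.6 to 188 CPM elsewhere.

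Cpe (ENSMUSG00000037852) lies on the minus strand at chr8:65045555-65146435 (GRCm39), has 9 exons in its canonical transcript of 2464 bases, and overlaps no exon of another annotated gene. Because the libraries test cells edited in an m6A writer, the places where its canonical mRNA carries GGACT, a common form of the m6A consensus, are shown as 29-base windows with the motif in capitals, written 5′ to 3′ on the transcript strand. The coding sequence holds both Cpe matches; the motif of the first lies at chr8:65070721-65070725 and that of the second at chr8:65046249-65046253, with a window that crosses an exon junction. Furin, the member with the highest level, is shown beside it: its first match is coding (motif within chr7:80040505-80040533, minus strand) and its second lies in the 3′ UTR (within chr7:80040194-80040222).
Cpe coding match 1: cggcgagctgaaGGACTggtttgtgggcc
Cpe coding match 2: tgctgttggggtGGACTttgagcttgagt
Furin coding match: ggagtgcccatcGGACTcagaggaggacg
Furin 3′ UTR match: cttggcccagctGGACTtcccgcagagtg
The GGACT search covered the sense strand of the canonical mRNA alone. Cpe had 2 matches (0.812 per kb) and Furin 2 (0.442 per kb), whereas Cpd had 9 (0.977 per kb), Pcsk7 5 (1.27 per kb) and Pcsk5 12 (1.66 per kb). At least 1 match was present in 93.9% of the canonical mRNAs of 12056 tested protein-coding genes, with a median density of 1.04 per kb, and 34.8% of these genes had a lower density than Cpe. Methylation was not measured in these libraries, and a match is a stretch of letters, not a methylated site.

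In the control cells the members spanned the whole range from abundant to undetected. Per kb of canonical mRNA, Furin was highest at 536 ± 302 CPM per kb (SD, n = 4 Pulsed libraries), followed by Pcsk7 at 11.1 ± 2.04, Cpd at 9.08 ± 1.69 and Cpe at 3.37 ± 1.84 CPM per kb. Pcsk5 (0.0636 ± 0.0547 CPM per kb), Cpq (0.0554 ± 0.0577) and Cpm (0.00506 ± 0.00411) were close to the limit of detection, and Pcsk6 had no count in any of the 8 libraries. In a single library a count of 0 allows a level of up to 3 counts, which is 0.0701 to 0.100 CPM here (counting error only). The steps from Furin to Pcsk7 (48.3-fold), from Cpd to Cpe (2.69-fold) and from Cpe to Pcsk5 (53.0-fold) were larger than the spread, with no overlap between the 4 libraries of the neighbouring genes. Pcsk7 and Cpd differed by 1.22-fold with overlapping ranges, although Pcsk7 was the higher in 4 of 4 libraries, and the ranges of Pcsk5, Cpq, Cpm and Pcsk6 overlapped between neighbours.

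**Figure D1:**
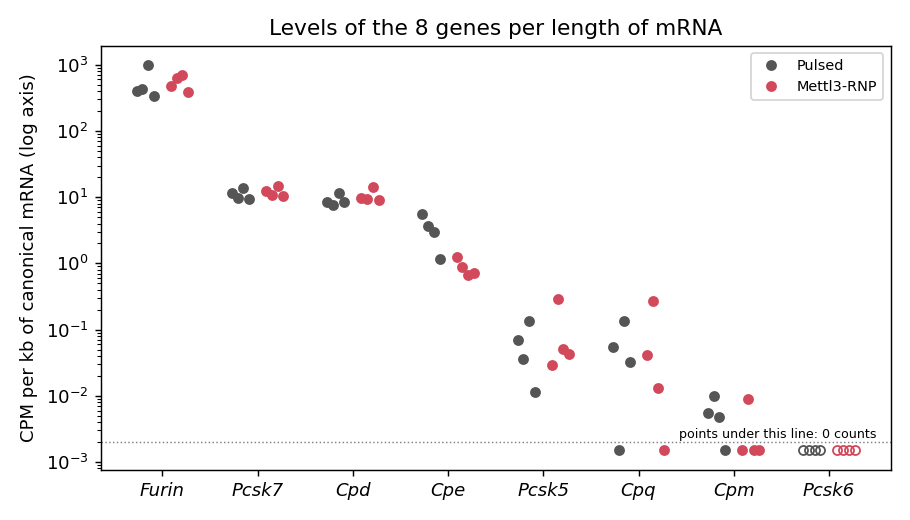
Level of each member in the 4 Pulsed (grey) and 4 Mettl3-RNP (red) libraries in CPM per kb of canonical mRNA, on a log axis, with 1 point per library and libraries without a count below the dotted line. In Pulsed cells Furin stands alone at the top with a mean of 536, Pcsk7, Cpd and Cpe form a middle range with means of 11.1, 9.08 and 3.37, and the remaining genes lie near or at 0.

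Cpe, which removes basic residues from the C-terminus of prohormone intermediates in secretory granules, was lower in the Mettl3-RNP library of 4 of 4 pairs, as were 16.0% of all tested genes. Its level in Pulsed replicates 1 to 4 was 13.8, 9.11, 7.38 and 2.90 CPM (492, 349, 297 and 106 counts). In Mettl3-RNP replicates 1 to 4 it was 3.07, 2.15, 1.64 and 1.77 CPM (114, 92, 49 and 62 counts). The Pulsed libraries themselves ranged over 4.77-fold and the Mettl3-RNP libraries over 1.87-fold, and the groups overlapped at a single point, since Mettl3-RNP replicate 1 (3.07 CPM) was above Pulsed replicate 4 (2.90 CPM); 3.23% of tested genes had groups without overlap, 1.2% with the lower values in Mettl3-RNP. The mean was 2.16 ± 0.646 CPM in Mettl3-RNP against 8.31 ± 4.52 CPM in Pulsed cells (SD, n = 4 each), which is 25.9% of the Pulsed mean.

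Within pairs, Mettl3-RNP cells held 22.5%, 24.0% and 22.8% of the Pulsed Cpe level in replicates 1, 2 and 3, and 61.6% in replicate 4. The first 3 pairs were therefore alike (-2.15, -2.06 and -2.14 on the log2 scale), and the fourth, in which the Pulsed level was already low, differed less (-0.70). The log2 fold change in the fit with the pairs was -1.82 (SE 0.253), a 3.54-fold lower level. Its value was -1.73 without replicate 2 and -1.94 without the pairs. For the other genes a call required an adjusted p of at most 0.05 and a fold change of at least 1.5, which 2.06% of all tested genes passed (308 of 14942, 0.816% lower and 1.24% higher). None of the other 4 tested members was called by edgeR, DESeq2 or limma; at an unadjusted p under 0.05 in edgeR, 1 of the 4 (Cpd) passed, as did 22.5% of all tested genes (3357). In bulk RNA, fewer cells that express a gene and less of its RNA per cell cannot be told apart.

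**Figure D2:**
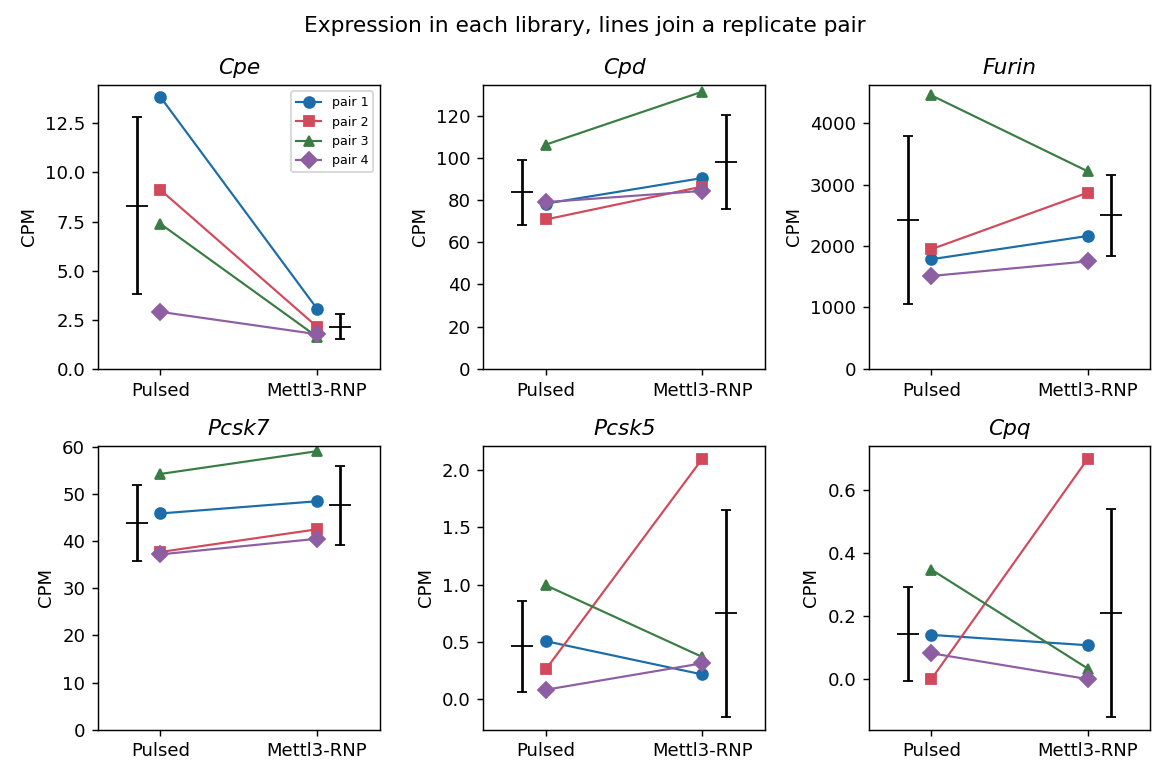
CPM of 6 members (Cpm and Pcsk6 left out) in each of the 8 libraries, 1 panel per gene with its own linear axis, lines joining the libraries of 1 replicate number and a bar beside each group for the mean ± SD. Cpe is at 2.90 to 13.8 CPM in Pulsed and 1.64 to 3.07 CPM in Mettl3-RNP libraries and lower along all 4 lines, Cpd and Pcsk7 are slightly higher along all 4, and the lines of Furin and Pcsk5 run in both directions.

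None of the other carboxypeptidases among the members was lower in 4 of 4 pairs. Cpd, which acts on the same kind of basic C-termini in the trans-Golgi network, stood at 90.5, 86.4, 131 and 84.4 CPM in Mettl3-RNP replicates 1 to 4 and at 78.3, 70.8, 106 and 79.0 CPM in the Pulsed libraries. Every Mettl3-RNP library was above its own pair, by 0.09 to 0.31 on the log2 scale, and the groups overlapped. The difference did not pass the test (log2 fold change 0.22, SE 0.0689, edgeR adjusted p 0.109), with an unadjusted 95% interval of 0.06 to 0.38. Cpm, a carboxypeptidase anchored at the cell surface, had 0 to 2 counts per library, 6 in all. Cpq, a secreted and lysosomal carboxypeptidase of another enzyme family, stood at 0.108, 0.701, 0.0335 and 0 CPM in Mettl3-RNP and at 0.141, 0, 0.348 and 0.0822 CPM in Pulsed replicates 1 to 4. Both were too low to be tested, and the highest Cpq value belonged to Mettl3-RNP replicate 2, the library with the most counts on receptor genes.

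Among the convertases, Furin, the general convertase of the trans-Golgi network and cell surface, had the highest level per kb. It was measured at 2165, 2871, 3216 and 1752 CPM in Mettl3-RNP and at 1786, 1949, 4454 and 1513 CPM in Pulsed replicates 1 to 4. It was higher in the Mettl3-RNP library in 3 of 4 pairs and lower in replicate 3, and the Mettl3-RNP range lay within the Pulsed range (log2 fold change 0.15, SE 0.15, edgeR adjusted p 0.628, 95% interval -0.20 to 0.49). In each group Furin was highest in the replicate 3 library and lowest in the replicate 4 library, which were also those with the highest and the lowest immediate early gene levels (775 and 3.96 CPM in Mettl3-RNP, 513 and 2.55 CPM in Pulsed). The part of that state in the Furin level was not tested. Without replicate 3 the log2 fold change was 0.35 (edgeR adjusted p 0.113), and without replicate 2 it was 0.00092.

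**Figure D3:**
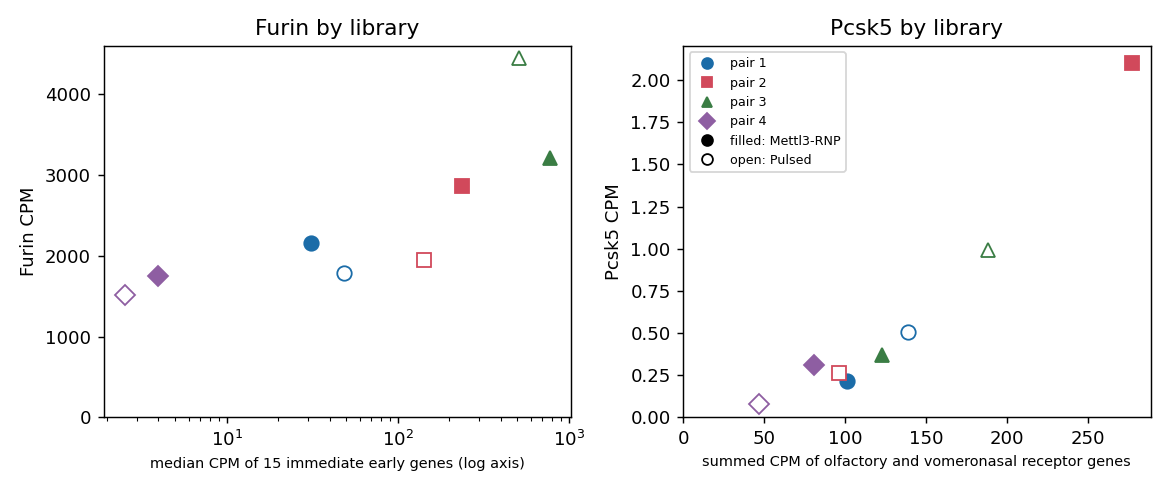
Left, Furin (CPM) against the median CPM of 15 immediate early genes on a log axis; right, Pcsk5 (CPM) against the summed CPM of 1547 olfactory and vomeronasal receptor genes; filled points are Mettl3-RNP and open points Pulsed libraries. The replicate 3 libraries are highest in both measures on the left (Furin 3216 and 4454 CPM), and Mettl3-RNP replicate 2 is highest in both on the right (Pcsk5 2.10 CPM, receptor genes 277 CPM).

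Pcsk7, a widely expressed convertase, differed little among the libraries, with 48.5, 42.5, 59.1 and 40.5 CPM in Mettl3-RNP and 45.9, 37.7, 54.3 and 37.2 CPM in Pulsed replicates 1 to 4. Each Mettl3-RNP library exceeded its pair by a small amount, 0.08 to 0.17 on the log2 scale. The difference did not pass the test (log2 fold change 0.12, SE 0.0654, edgeR adjusted p 0.309), and its 95% interval of -0.03 to 0.28 lies well inside a 1.5-fold change. Cpe, Cpd and Pcsk7 thus moved 1 way in 4 of 4 pairs, as 31.7% of all tested genes did; 15.7% were higher in all 4 pairs, as Cpd and Pcsk7 were.

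Pcsk5, a convertase of growth factor and adhesion molecule precursors, was at 0.215, 2.10, 0.368 and 0.314 CPM in Mettl3-RNP (8, 90, 11 and 11 counts) and at 0.506, 0.261, 0.995 and 0.0822 CPM in Pulsed libraries (18, 10, 40 and 3 counts). The Mettl3-RNP replicate 2 library held the highest level, and the pairs were divided 2 against 2 in direction. The fitted log2 fold change of 0.46 (SE 0.874, edgeR adjusted p 0.805, 95% interval -1.56 to 2.49) became -0.48 without replicate 2 (adjusted p 0.842), so these counts fix no direction. Receptor-gene counts were also highest in that library, and their part in the Pcsk5 value was not tested. Pcsk6, a convertase close to Pcsk5 in function, was at 0 throughout.

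**Figure D4:**
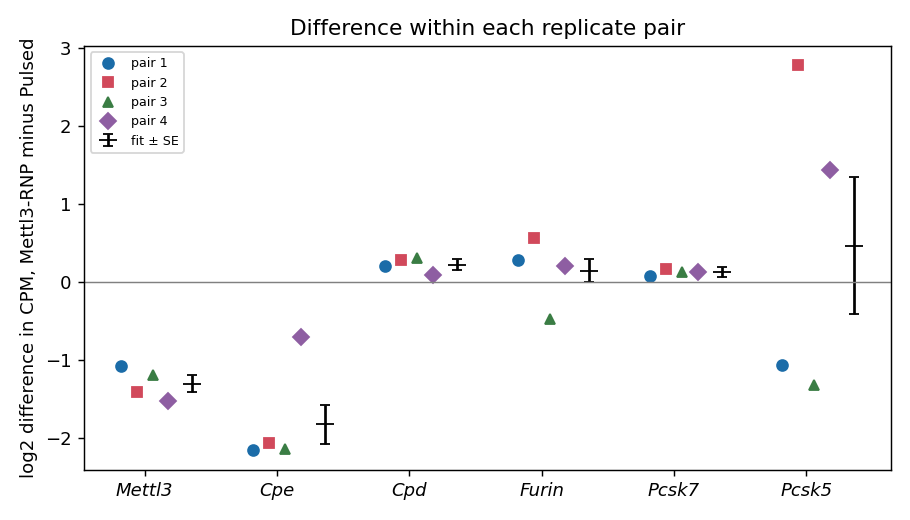
Log2 difference of Mettl3-RNP minus Pulsed within each of the 4 pairs (points) and the fitted log2 fold change ± SE (cross and bar) for the tested members and Mettl3, with no test for Cpe. All 4 points of Cpe and of Mettl3 lie below 0, those of Cpd (0.09 to 0.31) and Pcsk7 (0.08 to 0.17) lie just above it, and those of Pcsk5 run from -1.31 to 2.77.

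Cpd, Furin and Pcsk7 tended to be high in the same libraries. Pearson's r of log2 CPM was 0.904 for Cpd and Pcsk7, 0.767 for Furin and Pcsk7 and 0.743 for Cpd and Furin, whereas Cpe gave -0.0519 with Furin and -0.44 with Cpd. These values describe 8 libraries that share mice and groups, and Cpd, Furin and Pcsk7 were each highest in replicate 3. Among 11984 genes averaging 1 CPM or more, those that followed Cpe most closely over the 8 libraries were Il1bos (r 0.985), Anxa6 (0.976), Nrgn (0.962), Airn (0.942) and Arl3 (0.938), and the most opposite were Fry (-0.952), Gp5 (-0.943), Map3k20 (-0.940), Nudt14 (-0.932) and Tstd2 (-0.931). The order was loose: of the first 5, 4 remained among the first 5 with a smaller prior count, 0 to 3 when 1 pair was left out, and 0 when values were centred within pairs. In the centred values the same 5 genes still had r of 0.961 to 0.988 with Cpe, so it was their rank that moved. Il1bos and Airn are antisense transcripts, and since no source used here states strand-specific counting, their reads cannot be told apart from those of the genes opposite them.

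The wider machinery around these enzymes was read from 7 lists with 130 genes beside the members, of which 62 were tested. Of these, 1 was called higher and 1 lower (3.23%), near the background of 2.06% over all tested genes, and their median log2 fold change was 0.05 against -0.0013 over all genes. Of the 9 proprotein convertases 6 were tested and none passed the edgeR test, with a median log2 fold change of 0.14. Mbtps1, the site-1 protease that activates membrane-bound transcription factors, stood at 149 CPM in Mettl3-RNP against 125 CPM in Pulsed libraries (log2 fold change 0.25, edgeR adjusted p 0.0701). Its groups did not overlap, as in 3.23% of all tested genes. Pcsk1 and Pcsk2, the granule convertases that work with carboxypeptidase E in endocrine cells, were barely detected, with 18 and 10 counts over all 8 libraries; they were picked for mention after their values were seen.

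Of 22 carboxypeptidases of the M14 family, to which Cpe and Cpd belong, 8 were tested with a median log2 fold change of 0.04. Beside Cpe, which this contrast chose, none was called by edgeR. With removeBatchEffect and limma-trend 2 of the 8 were called lower, Cpe included. Cpa3, the granule carboxypeptidase A of mast cells, stood at 16660, 25510, 22780 and 28130 CPM in Mettl3-RNP and at 20420, 35740, 28380 and 37160 CPM in Pulsed replicates 1 to 4. Each pair had less of it in Mettl3-RNP cells (log2 fold change -0.37, SE 0.0699, edgeR adjusted p 0.0328, passed by 3.74% of tested genes), a smaller difference than the 1.5-fold used for calls, and the groups overlapped. Its adjusted p was above 0.05 without replicate 2 (0.159), 3 (0.0710) or 4 (0.109). Agtpbp1, which shortens glutamate chains on tubulin, stood at 32.1 CPM in Pulsed and 33.03 CPM in Mettl3-RNP cells (log2 fold change 0.04, adjusted p 0.785). Of 10 carboxypeptidases from other families 6 were tested (median log2 fold change 0.07) and none passed the edgeR test; the one with the most counts, the lysosomal Ctsa, averaged 191 CPM in Pulsed and 214 CPM in Mettl3-RNP libraries (log2 fold change 0.15, adjusted p 0.217).

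Of 22 partners of prohormone processing (amidating, trimming and inhibitory proteins) 14 were tested (median log2 fold change -0.13) and none changed by 1.5-fold with an adjusted p of at most 0.05. Both that passed on adjusted p alone were higher, in each case in 4 of 4 pairs and without overlap. Ctsb, the lysosomal cathepsin B, rose from 185 ± 10.9 to 237 ± 11.3 CPM (log2 fold change 0.36, edgeR adjusted p 0.0465). Ece1, the endothelin-converting enzyme, rose from 40.5 ± 4.32 to 52.8 ± 3.84 CPM (0.39, edgeR adjusted p 0.0301). Of all tested genes, 15.7% were higher in 4 of 4 pairs and 3.23% had groups without overlap. With any single pair left out neither passed on adjusted p (up to 0.261 for Ctsb and 0.157 for Ece1), while the log2 fold changes stayed at 0.32 to 0.38 and 0.35 to 0.41. The aminopeptidase Lnpep averaged 204 CPM in Pulsed and 171 CPM in Mettl3-RNP libraries (log2 fold change -0.26, adjusted p 0.0782). Among 12 granins and other secretory cargo genes 5 were tested (median log2 fold change -0.01) and none passed the edgeR test. Srgn, the proteoglycan core of mast cell granules, was at 3248 and 3303 CPM in Pulsed and Mettl3-RNP libraries, and Chga, the classical granin of endocrine granules, had no count in any library.

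Of 33 genes for peptide hormone precursors only 5 were tested, and 6 (Tac1, Vip, Nppa, Crh, Uts2 and Cartpt) had no count. Calca, the gene of calcitonin and calcitonin gene-related peptide, was the single one called by edgeR, at 19.0, 21.3, 19.7 and 9.89 CPM in Mettl3-RNP and 43.9, 38.5, 50.9 and 16.7 CPM in Pulsed replicates 1 to 4. It fell in 4 of 4 pairs (log2 fold change -1.05, SE 0.117, edgeR adjusted p 0.0106), although Pulsed replicate 4 lay within the Mettl3-RNP range. As for Cpe, its Pulsed level and its difference (-0.75) were smallest in replicate 4. Nmb, which encodes neuromedin B, averaged 43.2 CPM in Pulsed and 29.2 CPM in Mettl3-RNP libraries (log2 fold change -0.51, adjusted p 0.0697), and Grp, the gastrin-releasing peptide gene, 45.5 and 32.9 CPM (-0.71, adjusted p 0.0954). The 5 tested precursors had a median log2 fold change of -0.51. Of these precursors, 2 were called lower with DESeq2, with limma-trend, with every gene of at least 1 count, and without replicate 1 or 4.

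Of 30 genes for proteins matured by furin-type convertases 23 were tested, 19 with a fitted value above 0 and 4 below, where 49.8% of all tested genes were above 0, with a median log2 fold change of 0.19. Only Adam15, a membrane metalloprotease whose prodomain is cut off, was called: it rose from 8.62 ± 1.44 CPM in Pulsed to 18.3 ± 7.30 CPM in Mettl3-RNP libraries (log2 fold change 1.01, SE 0.182, edgeR adjusted p 0.0309), and was higher in 4 of 4 pairs. It overlaps genes on the opposite strand, and its adjusted p was 0.103 without replicate 2. Among those not called were Pcdh1, a protocadherin (1.29 and 3.18 CPM in Pulsed and Mettl3-RNP, log2 fold change 1.39, adjusted p 0.0607), and the receptor Notch1 (19.2 and 32.4 CPM, 0.70, adjusted p 0.0557), each higher in 4 of 4 pairs. The count of called substrates moved with the processing, from 0 without the pairs or without replicate 2 to 3 with DESeq2, with limma-trend, with either other count filter or without replicate 1. The substrates with the most counts were close to level, with log2 fold changes of -0.07 for Tgfb1, 0.02 for Sema4d and -0.04 for Atp6ap1 (edgeR adjusted p 0.688, 0.926 and 0.774).

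**Figure D5:**
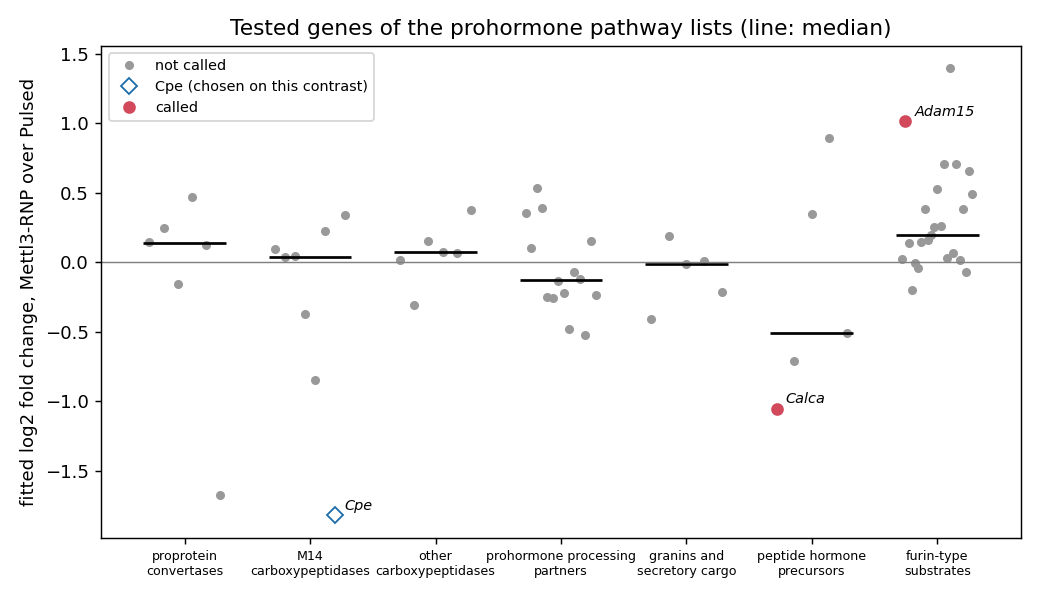
Fitted log2 fold change of Mettl3-RNP against Pulsed for each tested gene of the 7 lists, with the called genes marked, Cpe shown by its own symbol because this contrast chose it, and the median of each list drawn. The medians run from -0.51 for the peptide hormone precursors to 0.19 for the furin-type substrates, and the called genes are Calca and Adam15.

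Markers of other cells that marrow cultures can hold were read beside the Cpe difference. Endocrine and neuronal genes, a known setting of Cpe expression, summed to 14.7 to 15.1 CPM in Mettl3-RNP and 11.96 to 17.2 CPM in Pulsed libraries, with Neurod1 and Chga at 0 in all. Nearly all of that sum was Syp (averages of 13.6 CPM in Mettl3-RNP and 13.99 CPM in Pulsed); each of the other 7 genes averaged under 1 CPM, so the sum says little about such cells. Stromal genes summed to 3.08 to 6.38 CPM and 3.86 to 4.16 CPM, with Dcn and Thy1 at 0, and none of the 3 tested passed the edgeR test. Neutrophil genes stayed at or under 0.986 CPM and T and B cell genes at or under 2.67 CPM in every library.

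In other marker lists single genes were called. Basophil genes summed to 1795 to 2420 CPM in Mettl3-RNP and 2244 to 3322 CPM in Pulsed libraries. Among the 5 tested, Il18rap (log2 fold change -0.79, edgeR adjusted p 0.0324) and Ifitm1 (-0.60, adjusted p 0.0471) were called lower. Over all tested genes 0.816% were called lower. Ifitm1, with means of 2098 CPM in Pulsed and 1389 CPM in Mettl3-RNP cells, made up most of the sum. The defining Mcpt8 averaged 2.56 CPM in Pulsed and 1.88 CPM in Mettl3-RNP cells (-0.42, adjusted p 0.268) and Prss34 1.13 and 0.702 CPM (-0.68, adjusted p 0.299), both lower in 4 of 4 pairs. Cd200r3 went the other way in 4 of 4 pairs, with 572 CPM in Pulsed and 688 CPM in Mettl3-RNP cells (0.25, adjusted p 0.151). Erythroid genes summed to 12.2 to 22.0 and 17.2 to 33.7 CPM, with 1 of 4 tested called lower (Car2), and macrophage genes to 8.10 to 36.2 and 9.78 to 16.9 CPM, with 1 of 5 called lower (Adgre1). Cd68 carried the wide macrophage range, at 3.71, 23.8, 11.1 and 28.3 CPM in Mettl3-RNP and 5.01, 3.16, 6.56 and 3.26 CPM in Pulsed replicates 1 to 4 (log2 fold change 1.63, edgeR adjusted p 0.142), and Lyz2 stood at 5.43 and 5.17 CPM. Megakaryocyte genes summed to 2560 to 2675 CPM in Mettl3-RNP and 2176 to 2301 CPM in Pulsed libraries. Nearly all of that sum was Itga2b (1985 CPM in Mettl3-RNP and 1756 CPM in Pulsed) and Gp1ba (623 and 494 CPM). The others were near 0: Pf4 averaged 0.28 and 0.233 CPM, Gp9 0.39 and 0.545 CPM, and Ppbp 0.00836 and 0 CPM. The sum therefore says little about such cells. The part of these cells in the level of Cpe was not tested. The mast cell genes summed to 46100, 60990, 54720 and 62540 CPM in Mettl3-RNP and to 49860, 68260, 58260 and 66830 CPM in Pulsed replicates 1 to 4, less in Mettl3-RNP cells in each pair. Cpa3 carried that direction: without it the sums were 29440, 35480, 31940 and 34410 CPM in Mettl3-RNP and 29440, 32520, 29880 and 29670 CPM in Pulsed libraries, level in replicate 1 and higher in Mettl3-RNP cells in the other 3 pairs. Of the 11 tested, Cpa3 alone passed on adjusted p, while 7 had a fitted value above 0 and 4 below, with a median log2 fold change of 0.13.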

How the data were processed

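Gene counts were deposited as 1 table of whole-number counts per library. Per the labels and the methods of the study, the authors made poly(A) libraries, sequenced paired ends, aligned with HISAT2 2.2.1 to GRCm39 and counted with featureCounts 2.0.1; strand setting and treatment of multimapping reads are not given in the sources used here. A batch correction the study mentions was not visible in these raw counts.

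IDs were named with GENCODE M39 (GRCm39). CPM used TMM-scaled library sizes (total counts 32643260 to 45324826). Genes passing filterByExpr (minimum count 10) were fitted with edgeR 4.0.16 (R 4.3.3): TMM, estimateDisp, glmQLFit and glmQLFTest, with the replicate number as block and Benjamini-Hochberg adjustment over 14942 genes. Calls required an adjusted p of at most 0.05 and a fold change of at least 1.5. Pair differences used a prior count of 2. Same-numbered libraries deviated together (r 0.489 to 0.879 over 11985 genes; 0.183 at most between other numbers), and the series text names 4 mice. Replicates differed beyond sampling noise (chi-square per degree of freedom at least 52.6), and nothing used here says which mouse gave which library. DESeq2 1.42.0 and limma 3.58.1 served as alternatives.

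The members and lists were chosen with earlier results of these data known. Named were Mettl3, the members, list genes with an adjusted p of at most 0.05, the 3 most abundant genes of each list (described where they add to it), the 5 genes most like and most opposite to Cpe, and mast cell markers; further names (Pcsk1, Pcsk2, Pcdh1, Notch1, genes without counts, other cells' markers) were picked after their values were seen. The result of 1 listed gene is not reported here.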

Additional observations from a re-analysis of the deposited data

Results flagged for a closer look

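In 26 groups of 4 libraries (13 genes in each condition), 6 values stood far from the other 3 of their group. Chance would flag about 1 in 20 independent groups, but some of these genes vary together across libraries, and Cpm would be flagged by any count beside 3 zeros. Of the 6, 3 belonged to replicate 3. Cpd was at 131 CPM in Mettl3-RNP replicate 3 against 84.4 to 90.5 CPM in the others, Furin at 4454 CPM in Pulsed replicate 3 against 1513 to 1949 CPM, and Mettl3 at 11.2 CPM in Pulsed replicate 3 against 24.5 to 26.5 CPM. The other 3 belonged to Mettl3-RNP replicate 2: Pcsk5 at 2.10 CPM against 0.215 to 0.368 CPM, Cpq at 0.701 CPM against 0 to 0.108 CPM, and Cpm at 0.0467 CPM (2 counts) against 0.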

How the results depend on the processing

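The Cpe log2 fold change lay between -2.13 and -1.72 in all 13 alternatives. The only member that ever counts as called by edgeR is Cpe, which this contrast chose, so its count is no support. Without the replicate block edgeR called 0 members, 0 pathway genes beyond the members and 0 genes in all (579 at an unadjusted p under 0.05). Leaving out 1 pair gave 0 to 1 members, 1 to 7 pathway genes (main count 2) and 26 to 331 genes (main count 308); the low ends came without replicate 2, and 7 without replicate 1. Pathway and all genes numbered 6 and 505 with DESeq2, 7 and 973 with removeBatchEffect and limma-trend, 6 and 579 with every gene of at least 1 count, and 5 and 559 on adjusted p alone. Pathway genes numbered 4 with voom, 4 with at least 10 counts in every library (where Pcsk5 has no value) and 5 with the spread estimated by glmQLFit, an alternative chosen after seeing the data; all genes numbered 111 at 2-fold. Pcsk5 turned to -0.48 without replicate 2 and ranged up to 1.27 without another pair. Cpd and Pcsk7 passed on adjusted p with removeBatchEffect alone (0.00333 and 0.0150). That setting subtracts the replicate effect before the limma-trend fit, and the fit then takes no account of it. The p-values behind its calls are therefore too small, with an SE of 0.0382 for Cpd against 0.0689 in the main fit. Without replicate 3 the mean in Pulsed cells was 0.0743 CPM for Cpq (0.143 with it) and 0.283 CPM for Pcsk5 (0.461 with it). The causes were not tested. Depth limits Cpm, Cpq, Pcsk5 and Pcsk6.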

Other observations

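Genes next to Cpe on chromosome 8 were read as well. Msmo1, a sterol oxidase of cholesterol synthesis, averaged 118 CPM in Pulsed and 86.1 CPM in Mettl3-RNP libraries with less in Mettl3-RNP cells in 3 of 4 pairs (log2 fold change -0.54, SE 0.175, edgeR adjusted p 0.121). Tll1, Ddx60 and Klhl2 had log2 fold changes of 0.39, -0.40 and -0.02 (adjusted p 0.844, 0.494 and 0.945).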
